A study of Microtus ochrogaster with 23 samples.

Results

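DNA methylation in the dentate gyrus (DG) of “Attacker” and “Father” prairie voles was compared over windows of 1 kb. A window entered if, in both groups, 4 or more animals read 3 or more of its cytosines to a depth of 10. Chromosome X was left out. In this way 64892 windows were chosen of the 567614 windows that held any read cytosine in the 23 animals of the series. The level of a window in an animal is the mean, over its cytosines, of the percentage of reads that were methylated. The choice of windows used coverage only and no methylation level.

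The study asked how the DG of voles differs with their response to pups and with their reproductive experience. The “Attacker” group held 6 sexually naïve adult males that attacked an unfamiliar pup during the exposure test. The “Father” group held 5 pair-bonded adult males that had sired a litter with a mate and cared for pups. All 11 animals were male and of the WT genotype, and sexual experience, housing with a mate and litter, and the attack on a pup cannot be told apart in this comparison. The 6 “Parental” animals (sexually naïve males that cared for the pup) and the 6 “Mother” animals served only for values placed beside those of the pair. Each animal gave 1 library of its own from bulk DG tissue, and the animals are the replicates.

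In mammals, DNA methylation sits mostly on the cytosine of CpG pairs. Promoters rich in CpGs are usually unmethylated, whereas gene bodies and the spaces between genes are mostly methylated, and regions of intermediate level are often distal regulatory elements or places where cells of a tissue differ. Reduced representation bisulfite sequencing (RRBS) reads fragments cut by the enzyme MspI and therefore favours CpG-rich sequence. The DG is the gate of the hippocampus and is packed with granule neurons, some of which are born in adult life. In bulk tissue a level is a share over all cells, so that a change within cells and a change in the share of cell types cannot be told apart. RRBS carries no expression, so the tissue was not checked by marker transcripts. Windows in or within 2 kb of granule neuron marker genes had a median level of 16%, against 6.64% for all windows so near a gene. Over the marker genes of other cell types this median ran from 2.19% to 33.8%, so it is no check of the tissue.

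The libraries held 64896224 to 129376223 calls, a call being 1 read at 1 cytosine, and 58780 to 62708 of the windows had a level in a given animal. All 11 animals had a level in 43112 windows (66.4%). The median window held 8.7 counted cytosines and 442 calls per animal. Of the windows, 47195 (72.7%) lay on placed chromosomes, where gene positions are known, and 64.6% of these overlapped a gene. The libraries fell into 6 deeper ones, with 80511814 calls or more, and 5 shallower ones, with 69748200 calls or fewer. The deeper libraries were animals 1 to 3 of both groups and the shallower ones were those numbered 4 and above, and since no label says whether the numbers mark a batch of libraries, depth and such a batch cannot be told apart. In the deeper libraries 8.34% to 12.9% of all calls were methylated, and in the shallower ones 20.1% to 38.7%, with the highest value in “Attacker” animal 6.

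The overall level of methylation did not separate the groups. Over the 43112 windows with all animals, the mean level was 19.1% ± 1.88 (SD, n = 6) in “Attacker” and 18.6% ± 0.936 (SD, n = 5) in “Father” voles, a difference of 0.47 percentage points (exact permutation test, two-sided, p = 0.662). The “Attacker” animals lay at 17%, 18.3%, 17.8%, 19.2%, 20.2% and 22.2%, and the “Father” animals at 18.1%, 17.9%, 17.9%, 19.6% and 19.7%. All “Father” values therefore fell inside the “Attacker” range, and “Attacker” animal 6 stood highest of all. Without that animal the difference was -0.149 points (exact permutation test, p = 0.841). With all animals, the smallest p-value this test allows is 0.00433.

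The classes of level gave the same picture. Windows under 20%, the CpG-rich and mostly unmethylated part of the genome, made up 54.2% of the windows, and their mean level was 3.71% ± 0.706 (SD, n = 6) in “Attacker” and 3.44% ± 0.347 (SD, n = 5) in “Father” voles (exact permutation test, p = 0.511). Windows over 80%, 12.4% of all, were at 88.7% ± 0.801 (SD, n = 6) and 88.8% ± 0.481 (SD, n = 5) (exact permutation test, p = 0.922). Between these, the 33.4% of windows at 20 to 80% had a mean of 46.4% ± 5.68 (SD, n = 6) in “Attacker” and 45.2% ± 2.82 (SD, n = 5) in “Father” voles (exact permutation test, p = 0.71). It was in this intermediate class that animals differed most, from 39.5% in “Attacker” animal 1 to 55.3% in “Attacker” animal 6.

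**Figure D1:**
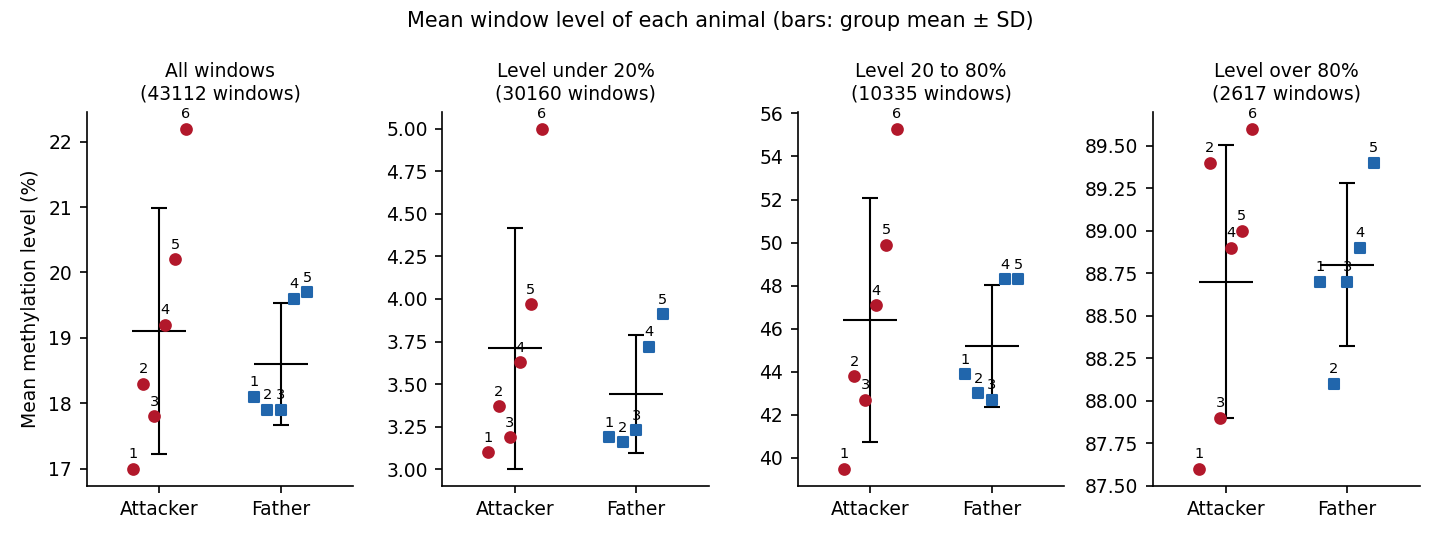
Mean methylation level (%) of each animal over windows with a value in all 11 animals, for all windows and for 3 classes of mean level, with the animal's number above each point and the group mean ± SD in black. The vertical axes are cut to the range of the data and differ between panels. “Attacker” animals spread more widely than “Father” animals in each panel, and animal 6 is highest in each.

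The intermediate level moved with the library. In the 6 deeper libraries the mean level of windows at 20 to 80% lay between 39.5% and 43.9% (mean 42.6%), and in the 5 shallower ones between 47.1% and 55.3% (mean 49.8%), so that these sets of libraries did not overlap. Since libraries of either depth occurred in both groups, the comparison was repeated within depth. Among the 6 deeper libraries the intermediate windows were at 42% in 3 “Attacker” and 43.2% in 3 “Father” animals, a difference of -1.19 points. Among the shallower ones they were at 50.8% in 3 “Attacker” and 48.3% in 2 “Father” animals, a difference of 2.54 points. The sign of the difference thus turned between the 2 sets of libraries. Exact permutation tests within the sets gave p = 0.4 and p = 0.6. With so few animals their smallest possible values are 0.1 and 0.2, so they could not have shown a difference in either set. With labels permuted within depth, the difference was 0.467 points (exact permutation test, p = 0.86).

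No single window passed correction for multiple testing. With limma on the arcsine square root of the levels, 0 of 64892 windows (0%) had an adjusted p-value under 0.05, and the smallest adjusted p-value was 0.0557. At an unadjusted p-value under 0.05 there were 3056 windows (4.71%), of which 1607 were higher (2.48%) and 1449 lower (2.23%) in “Attacker” voles, where an even spread of p-values would put 5% of windows. A quasi-binomial model of the summed counts gave 0 windows with an adjusted p-value under 0.05 and 4299 of 64545 (6.66%) at an unadjusted p-value under 0.05. On simulated windows with equal group means this model passed more windows than its nominal level, so its share is not read against 5%. Differences were small in most windows, with 67% of them under 5 points in either direction, and they reached from -57.4 to 73.5 points at the extremes. For the median window, the 95% confidence interval of the difference extended 10.8 points to either side. It extended 23.3 points for windows of intermediate level, 13.3 points for windows over 80% and 1.9 points for windows under 20%.

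**Figure D2:**
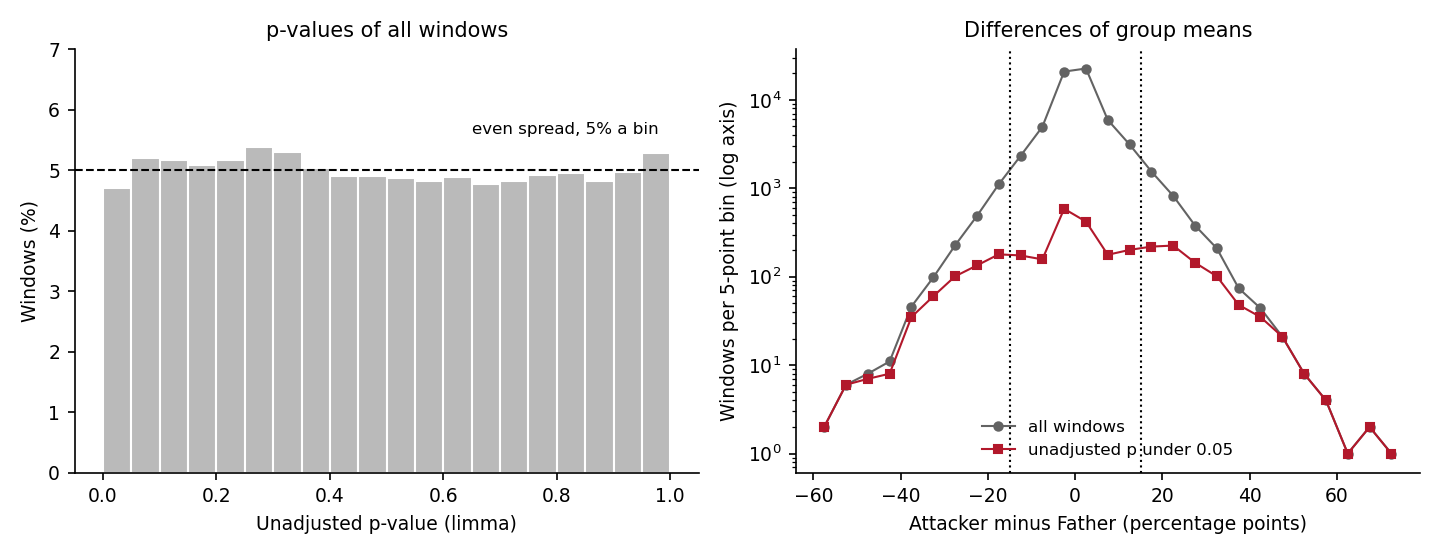
Left, share of the 64892 windows (%) in each 0.05-wide bin of the unadjusted limma p-value, with a dashed line at an even spread of 5%. Right, number of windows (log axis) in each 5-point bin of the difference “Attacker” minus “Father”, for all windows and for those with an unadjusted p-value under 0.05, with dotted lines at 15 points. The first p-value bin holds 4.71% of the windows, below the line.

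The study derived differentially methylated regions as well as single cytosines, and its regions are not compared here. It called single cytosines hypermethylated or hypomethylated at an unadjusted p-value under 0.05 and a difference over 15%. Put to windows as a description, these thresholds were passed by 1341 windows (2.07%), with 809 hypermethylated (1.25%) and 532 hypomethylated (0.82%) in “Attacker” voles, so that 60.3% were hypermethylated. The animals of the groups did not overlap in 241 windows (0.371%) that were higher and 189 (0.291%) that were lower in “Attacker” voles. The hypermethylated share changed with the animals and the terms in the fit. Without “Attacker” animal 6, 43.9% of the windows past these thresholds were hypermethylated, and without “Attacker” animal 1 it was 70.8%. With all animals kept, the share was 52.7% with the depth of the library as a term in the fit. It was 46.5% with the animal's mean level as a covariate.

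**Figure D3:**
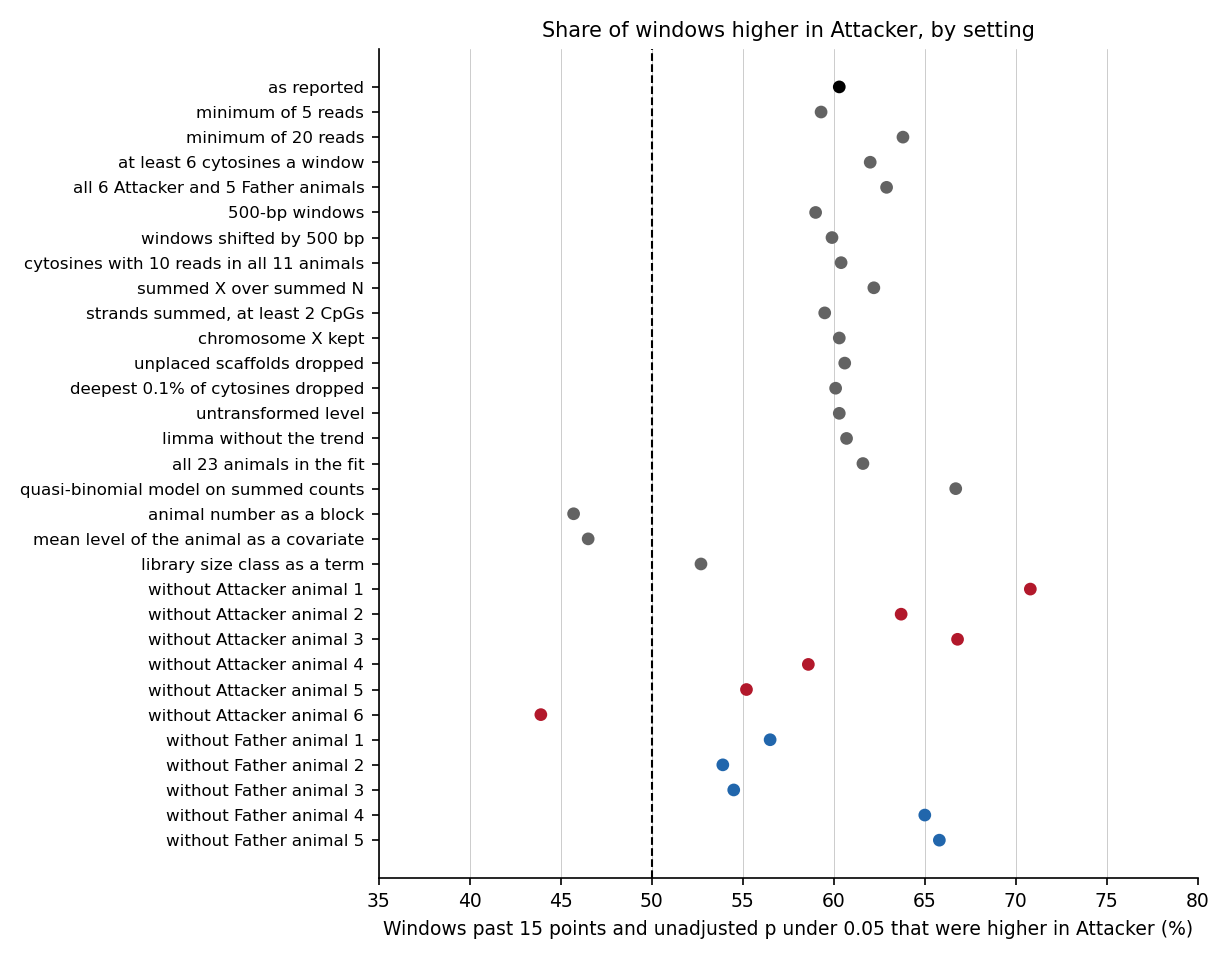
Share (%) of the windows past a 15-point difference and an unadjusted p-value under 0.05 that were higher in “Attacker” voles, for the reported setting (black), other settings (grey) and each “Attacker” (red) or “Father” (blue) animal left out, with a dashed line at 50%. The reported value is 60.3%, and the lowest, 43.9%, is the one without “Attacker” animal 6.

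The 15-point threshold can hardly be met by windows of very low level, and windows past both thresholds had mostly few cytosines and intermediate levels. They made up 4.42% of windows at 20 to 80%, 2.61% of those over 80% and 0.492% of those under 20%, and none of the 25043 windows under 5%. At an unadjusted p-value under 0.05 alone, the shares were 4.59%, 5.7%, 4.56% and 4.32% in these classes. By density, the share was 3.42% in windows with under 10 cytosines, 0.807% with 10 to 30, and 0.0349% with 30 or more. All 11 animals had a level in 33.8% of them, against 66.4% of all windows, and their median number of cytosines was 5.25. The median SD between “Attacker” animals was 12.6 points in windows with under 10 cytosines and 0.588 points in those with 30 or more. The hypermethylated share was 62.2% at intermediate levels, 66.5% under 20% and 46.9% over 80%. Windows that overlapped a gene passed in 1.84% and windows outside genes in 2.63%, while those within 1 kb of either end of a gene, where levels averaged 5.42% in “Attacker” and 5.31% in “Father” voles, passed in 0.557%.

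The 10 windows with the smallest p-values that passed these thresholds in each direction are described next, although none was called after correction. They had 3 to 6 counted cytosines and 54 to 270 calls per animal at the median, and 4 of the 20 had a level in every animal. A level of 0% at these depths allows a true level of up to 1.11% to 5.56% (3 methylated calls of the total, counting error only). This takes the calls as independent. Because 1 read can give calls at several cytosines, the limit is higher when reads are counted. In 19 of the 20 the groups did not overlap, which is how windows with the smallest p-values were bound to look.

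Among the hypermethylated windows, the one with the smallest p-value lay in Aldh7a1 (chr18:42865000-42865999), an aldehyde dehydrogenase of lysine breakdown. Its level was 100% in all 6 “Attacker” animals and 80.8%, 83.3%, 63.6%, 85% and 85.7% in the 5 “Father” animals (difference 20.3 points, adjusted p = 0.109). All “Father” animals lay below all “Attacker” animals, but over the cytosines that had 10 reads in all 11 animals the difference was 3.7 points. Nearby on the same chromosome, a window in Gramd2b (chr18:42821000-42821999), which encodes a GRAM domain protein, was nearly unmethylated in 4 “Father” animals, at 0%, 0%, 0% and 4.76%. The 5 “Attacker” animals with a level there had 55%, 36.9%, 44.1%, 31.7% and 72.8% (difference 46.9 points, adjusted p = 0.29). The groups were thus far apart, with a wide spread among “Attacker” animals.

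A window in the uncharacterized gene LOC101985643 (LG10:18630000-18630999) had the widest difference of all windows. It was at 100%, 100%, 100% and 77% in 4 “Attacker” animals and at 25%, 25%, 25%, 28.6% and 0% in the “Father” animals (difference 73.5 points, adjusted p = 0.29). The groups did not overlap in this window, which held 4 counted cytosines and 84 calls at the median. At chr5:12509000-12509999, 142000 bp from LOC113456149, the values were tight, with 54.9%, 63%, 62.2%, 57.3% and 56% in 5 “Attacker” animals and 18.8%, 22.5%, 21% and 21.6% in 4 “Father” animals (difference 37.7 points, adjusted p = 0.322). No “Attacker” animal came near the “Father” range.

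Several hypermethylated windows were at or near 0% in “Father” voles. In Coro2b (chr5:77277000-77277999), a coronin that binds actin, 4 “Father” animals were at 0% and 4 “Attacker” animals at 24.2%, 14.5%, 38.5% and 47.1% (difference 31.1 points, adjusted p = 0.322). In Col15a1 (LG5:42295000-42295999), a collagen chain of basement membranes, “Father” levels were 0%, 0%, 25%, 0% and 0%, and “Attacker” levels ran from 23.3% over a median of 40.8% to 74.8% (difference 39.3 points, adjusted p = 0.489). Here a single “Father” animal reached into the “Attacker” range. Of 3 further windows outside genes, one 84900 bp from Cdyl (chr16:40164000-40164999), a chromodomain corepressor, had a difference of 18.7 points (adjusted p = 0.29), with “Father” levels of 0% to 1.1% and “Attacker” levels of 10.6% to 25%. Another, 23300 bp from Chmp4b (LG8:23482000-23482999), a subunit of the ESCRT-III membrane remodelling complex, differed by 23.8 points (adjusted p = 0.489). The last, at chr19:7037000-7037999 and 33500 bp from LOC101981463, differed by 23.3 points (adjusted p = 0.253). In all 3 the lowest “Attacker” animal lay above the highest “Father” animal. In Ankrd50 (chr1:91702000-91702999), which takes part in recycling of endosomes, the levels were high, with “Attacker” animals at 91.7% to 100% and 4 “Father” animals at 75%, 58.6%, 52.3% and 87.5% (difference 30.3 points, adjusted p = 0.395).

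**Figure D4:**
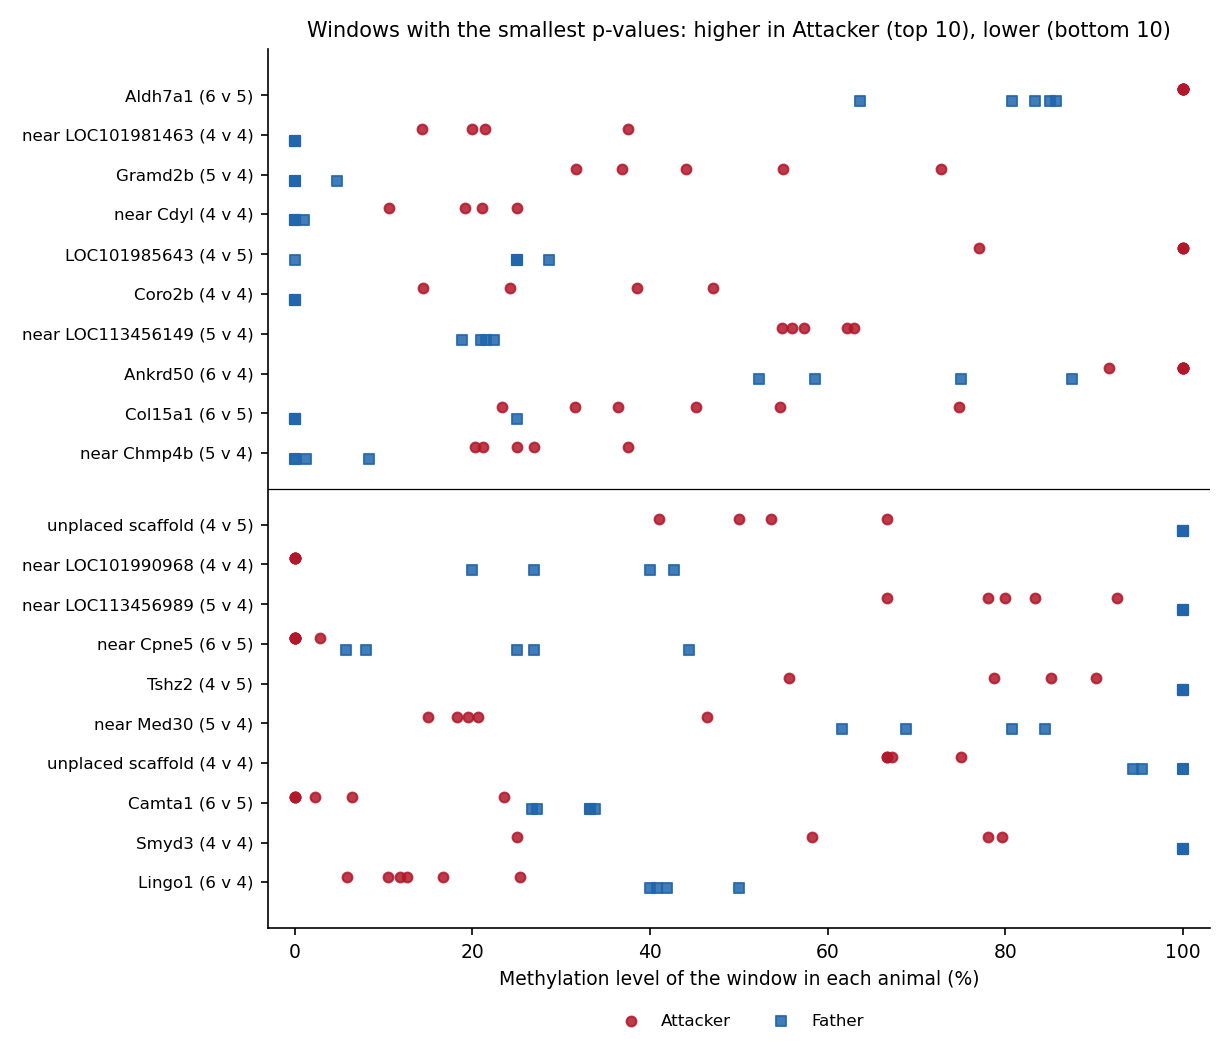
Methylation level (%) in each animal of the 20 windows with the smallest p-values among those over 15 points apart, 10 higher (top) and 10 lower (bottom) in “Attacker” voles, named by the gene they overlap or the nearest gene, with the number of “Attacker” and “Father” animals. Circles are “Attacker” and squares “Father” animals. The symbols of the groups stay apart in each row except Col15a1.

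The smallest p-value of all belonged to a hypomethylated window on the unplaced scaffold JH996446.1 (positions 3245000 to 3245999). All 5 “Father” animals were at 100%, and the 4 “Attacker” animals with a level were at 53.6%, 50%, 41% and 66.7% (difference -47.2 points, adjusted p = 0.0557). It held 3 counted cytosines and 69 calls at the median. “Parental” animals were at 66.7%, 84.5%, 100% and 0% and “Mother” animals at 100%, 100%, 100% and 0%, so that 1 animal of each of these groups had no methylated read there. The adjusted p-value of this window ran from 0.0102 to 0.948 over 23 other settings, and it fell under 0.05 with neighbouring cytosines of a CpG summed (0.0106), without the trend in limma (0.0102) and without “Attacker” animal 1 (0.0294) or 2 (0.0279), neither of which had a level in it.

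Full methylation in “Father” voles recurred among the hypomethylated windows. In Tshz2 (LG8:8661000-8661999), a teashirt zinc finger transcription factor, all 5 “Father” animals were at 100% and 4 “Attacker” animals at 90.2%, 55.6%, 78.7% and 85.1% (difference -22.6 points, adjusted p = 0.474). In Smyd3 (chr6:85378000-85378999), a lysine methyltransferase, 4 “Father” animals were at 100% and 4 “Attacker” animals at 25%, 78%, 79.6% and 58.2% (difference -39.8 points, adjusted p = 0.617). A window 82400 bp from LOC113456989 (chr17:1037000-1037999) had 4 “Father” animals at 100% and 5 “Attacker” animals at 66.7% to 92.6% (difference -19.9 points, adjusted p = 0.378). In these windows the “Father” animals were all at 100% and the “Attacker” animals all below it. In Smyd3 animals of the other groups also fell below, with “Parental” animals from 0% to 100% and “Mother” animals from 0% to 66.7%. In Tshz2 “Parental” animals ran from 68% to 100%, and the 1 “Mother” animal with a level was at 80.6%. At chr17:1037000-1037999 the 4 “Parental” animals were at 100%, as in “Father” voles, and the 5 “Mother” animals at 87.4% to 100%.

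Other hypomethylated windows had low or intermediate levels. In Camta1 (chr10:81391000-81391999), a calmodulin-binding transcription activator expressed in neurons, “Father” levels were 33.3%, 33.3%, 33.8%, 27.3% and 26.7%, and “Attacker” levels ran from 0% over a median of 1.14% to 23.6% (difference -25.5 points, adjusted p = 0.597). This difference depended on which cytosines were read, since it was 0.26 points over the cytosines that had 10 reads in all 11 animals. In Lingo1 (chr5:50903000-50903999), a membrane protein that restrains axon growth and myelination, 4 “Father” animals were at 40%, 40.8%, 41.9% and 50%, and the “Attacker” animals ran from 5.88% over a median of 12.3% to 25.4% (difference -29.3 points, adjusted p = 0.617). The groups were apart in both genes. Just 231 bp from Med30 (LG3:1918000-1918999), a subunit of the Mediator complex, 4 “Father” animals had 84.5%, 68.8%, 61.6% and 80.7% and 5 “Attacker” animals 19.5%, 15%, 20.6%, 18.3% and 46.4% (difference -50 points, adjusted p = 0.489). The 6 “Parental” animals averaged 24% and the 6 “Mother” animals 42.3% in this window. At 2580 bp from Cpne5 (LG2:51190000-51190999), a copine that binds membranes in response to calcium, 5 of 6 “Attacker” animals were at 0% and one at 2.86%, whereas “Father” animals were at 44.4%, 5.79%, 8.02%, 27% and 25% (difference -21.6 points, adjusted p = 0.417). Over the cytosines that had 10 reads in all 11 animals this difference was -12.7 points. Of the windows with the smallest p-values, only this one and those in Aldh7a1 and Camta1 had a value over such cytosines. The difference was smaller there in each of them. The remaining 2 of the 10 were a window at chr5:93020000-93020999, 153000 bp from LOC101990968, with a difference of -32.4 points (adjusted p = 0.149), and one on the unplaced scaffold JH996554.1 (759000 to 759999) with a difference of -28.6 points (adjusted p = 0.506).

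Among the 3056 of 64892 windows (4.71%) with an unadjusted p-value under 0.05 there were 16 runs of at least 2 adjoining windows in one direction. How many of all windows adjoin another is not given here, so the 16 runs are not read as many or few. The 5 runs with the largest mean difference were each 2 windows long. The first run (chr1:38460000-38461999) lay 5540 bp from LOC113457014, with group means of 55.9% in “Attacker” and 28.2% in “Father” voles. In its second window, which held 12 cytosines, “Father” animals were at 9.47%, 11.3%, 7.76%, 11.8% and 9.83% and “Attacker” animals ran from 14.4% over a median of 19.4% to 39.6% (difference 13 points, adjusted p = 0.971), without overlap. The difference in this window was 4.98 points over the cytosines that had 10 reads in all 11 animals. The second run (chr6:69510000-69511999) overlapped Klhdc9, a kelch repeat protein, with means of 38.4% and 15.4%. The third, at chr2:29206000-29207999 and 37600 bp from LOC101991973, was the only one of the 5 that was lower in “Attacker” voles, with means of 52.6% and 72.6%. Near Map3k7cl (chr2:95131000-95132999, 51800 bp away) the means were 75.5% and 56.4%, and on the unplaced scaffold JH996492.1 (887000 to 888999) 28.5% and 10.2%. On that scaffold “Attacker” animal 6 was highest in both windows, at 58.4% and 57.2%, and the groups overlapped.

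Genes with several windows at an unadjusted p-value under 0.05 in one direction were few. Here a window is called higher or lower by that p-value alone, whatever the size of its difference. Col15a1 had 4 higher of its 16 windows (25%, against 2.48% of all windows in that direction, for a gene named because it had the most such windows), and the median difference over the 16 was 5.78 points. Beside the window described above, “Father” levels at LG5:42305000-42305999 were 49.7%, 33.3%, 24.7%, 64.5% and 50%, and the 4 “Attacker” animals had 93.3%, 71.9%, 74% and 68.4% (difference 32.5 points, adjusted p = 0.971), which did not overlap. The other windows, at LG5:42222000-42222999 and LG5:42263000-42263999, differed by 15.4 and 16.1 points, and there the groups overlapped. “Parental” means of the 4 windows were 97.5%, 34.9%, 24.9% and 50.1%, and “Mother” means 72.6%, 15%, 24.1% and 58.4%, in order of position.

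Rai1 is a chromatin-associated regulator of transcription with roles in neuronal development. At an unadjusted p-value under 0.05, 3 of its 16 windows were higher in “Attacker” voles (18.8%, against 2.48% of all windows). In the window nearest to the lower end of the gene span (chr7:38329000-38329999), with 15 cytosines, “Father” animals were at 13%, 16.2%, 13.4%, 23.2% and 26.1% and “Attacker” animals from 27.6% over a median of 47.8% to 78.1% (difference 31.4 points, adjusted p = 0.971), without overlap. The second (chr7:38359000-38359999) also had no overlap, with 4 “Attacker” animals at 21.6%, 27.1%, 27.9% and 25.1% and 4 “Father” animals at 0%, 15.4%, 9.01% and 7.11%. The third (chr7:38392000-38392999), with 32 cytosines, was nearly unmethylated at 4.8% ± 3 (SD, n = 6) and 1.37% ± 0.512 (SD, n = 5), and its difference of 3.43 points was 0.0286 points over cytosines with 10 reads in all 11 animals. Shank2, a scaffold protein of the postsynaptic density, had 3 higher (13.6%) and 1 lower of its 22 windows by the same threshold. The 3 higher windows differed by 17.6, 19.6 and 12.8 points, and the groups overlapped in each. In the Shank2 window with the most cytosines (chr8:36876000-36876999), “Father” animals were at 12.3%, 18.9%, 15.7%, 17.7% and 24%, and the “Attacker” animals ran from 18.4% over a median of 30.4% to 39.9%.

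**Figure D5:**
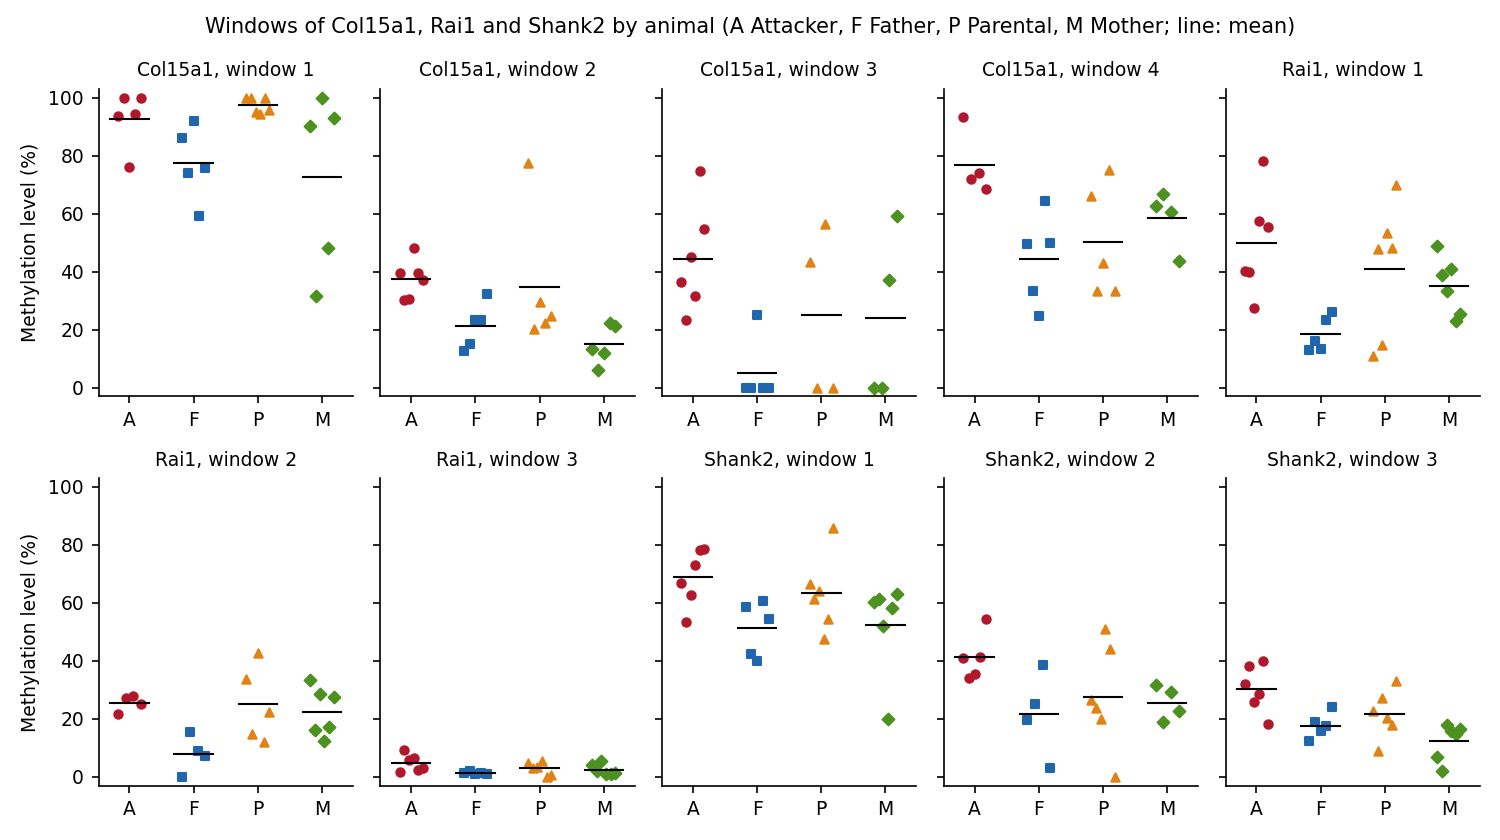
Methylation level (%) in each animal of the windows of Col15a1 (4), Rai1 (3) and Shank2 (3) with an unadjusted p-value under 0.05 and a higher level in “Attacker” voles, numbered by position, in all 4 groups of the series, with a line at each group mean. In Rai1 window 1 the “Father” animals lie below all “Attacker” animals, and in Shank2 the symbols of both groups overlap.

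In Nr5a2, the nuclear receptor LRH-1, 3 windows of 15 were higher in “Attacker” voles at an unadjusted p-value under 0.05 (20%, against 2.48% of all windows). All 3 were of low level. At chr6:27635000-27635999, 4 “Father” animals were at 0% and one at 6.13%, and the “Attacker” animals ran from 3.25% over a median of 9.33% to 21.2% (difference 9.37 points, adjusted p = 0.889). At chr6:27638000-27638999 the difference was 1.31 points and at chr6:27643000-27643999 it was 13.4 points. LOC113457658, an uncharacterized gene whose span on LG4 (21215234 to 22421135) is long, had 4 higher and 1 lower window by this threshold, and the former were 2.96% of its windows.

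Gene groups were described by counts of windows in or within 2 kb of their genes, beside all 33815 such windows, of which 4.65% had an unadjusted p-value under 0.05 and 1.77% also differed by over 15 points. Listed genes without a position in the annotation used gave no window. For Wnt signaling, 58 of 80 listed genes had a position. None of 8 pathway groups held a window with an adjusted p-value under 0.05. Wnt signaling, which steers the growth and maturation of new granule neurons, had 305 windows at 58 genes, with 6 higher and 10 lower in “Attacker” voles at an unadjusted p-value under 0.05 (5.25%), and a median difference of 0.0417 points. Its smallest p-value fell in Dkk1 (chr8:59671000-59671999), a secreted inhibitor of Wnt receptors. There 4 “Attacker” animals were at 18.5%, 17.5%, 16.7% and 20% and 4 “Father” animals at 0%, 0%, 6.67% and 0% (difference 16.5 points, adjusted p = 0.597), without overlap. Only Wnt3a, a Wnt ligand (27.7 points, 105 bp from the gene), and Tcf7l2, a transcription factor at the end of the pathway (-26.6 points), had another window over 15 points at an unadjusted p-value under 0.05, with an adjusted p of 0.971 and overlapping groups for both genes. The Wnt ligand genes Wnt6 and Wnt10b had all their windows within -3.2 to 1.23 points.

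Hormone and neuropeptide genes, fixed as a list of receptors, ligands and binding proteins for vasopressin, prolactin, steroid, stress hormone, kisspeptin, galanin and thyroid signaling, had 77 windows at 18 genes, with 2 higher and 2 lower at an unadjusted p-value under 0.05 (5.19%). The list also named the receptor genes Oxtr and Avpr1a, which had no counted window and were not analysed here. Of its 33 genes, 21 had a position in the annotation used, so a gene could lack a window for want of a position or of coverage. In Nr3c1 (chr18:27921000-27921999), the glucocorticoid receptor, “Father” animals were at 2.29%, 13.3%, 3.94%, 18.4% and 7.42% and “Attacker” animals ran from 9.93% over a median of 28.2% to 52.8% (difference 19.7 points, adjusted p = 0.971), with overlap. In Crhbp (chr19:5098000-5098999), which binds corticotropin-releasing hormone, 4 “Attacker” animals ran from 11.9% to 57.7% and 4 “Father” animals were at 71.6%, 58.7%, 85.5% and 64.8% (difference -32 points, adjusted p = 0.971), without overlap. Esrrb, an orphan nuclear receptor, held the smallest p-value of the group (chr1:24324000-24324999, 22.2 points, adjusted p = 0.971), and this difference was -5.51 points when neighbouring cytosines of a CpG were summed. The estrogen receptor genes Esr1, with 11 windows, and Esr2, with 4, had no window at an unadjusted p-value under 0.05, and differences in Esr1 ran from -21.5 to 29.7 points. The prolactin receptor gene Prlr (2 windows, -4.04 to 1.01 points) and the progesterone receptor gene Pgr (3 windows, -3.25 to 2.78 points) had none either. In this and the other gene groups, genes named beside the one with the smallest p-value were picked after their values were seen.

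At glutamatergic and GABAergic synapse genes, 275 windows at 41 genes held 8 higher and 4 lower (4.36%), with a median difference of 0.338 points against 0.0658 for all windows near genes. In Gria1 (chr7:41602000-41602999), the AMPA receptor subunit GluA1, 5 “Attacker” animals were at 65.8%, 28%, 63.7%, 67.9% and 77% and 4 “Father” animals at 27.6%, 28.1%, 37.5% and 31.7% (difference 29.2 points, adjusted p = 0.971). One “Attacker” animal lay within the “Father” range and the other 4 above it. Beside the windows of Shank2 given above, windows in Gabra5, a GABA-A receptor subunit (20.8 points), and Grik3, a kainate receptor subunit (26.1 points), were also higher and one in Grik4, another kainate receptor subunit (-22.1 points), was lower, with overlapping groups in all 3. Monoamine, opioid and cholinergic genes had 125 windows with 2 higher and 2 lower (3.2%). Among them, Drd2 (chr5:43602000-43602999), the D2 dopamine receptor, had 4 “Attacker” animals at 16.2%, 53.8%, 47.9% and 36.6% and “Father” animals at 65.3%, 97%, 52.2%, 92.4% and 67.4% (difference -36.2 points, adjusted p = 0.971), with an overlap of 1 animal of each group.

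ECM-receptor interaction genes (213 windows, 4 higher and 5 lower, 4.23%) and axon guidance genes (361 windows, 7 higher and 4 lower, 3.05%) had no more such windows than the whole. The first of the ECM group lay in the integrin subunit gene Itgb8 (chr1:53845000-53845999), where all 6 “Attacker” animals were at 0% and “Father” animals at 0% to 3.92% (difference -1.8 points, adjusted p = 0.81). In the axon guidance ligand gene Slit3 the window with the smallest p-value of its group (chr7:56976000-56976999) was at 100% in all “Father” animals and at 85.3% to 100% in 5 “Attacker” animals (difference -7.06 points, adjusted p = 0.971), and other windows of the gene went both ways. One was at 0% in 4 “Father” animals and from 0% to 86.7% in 5 “Attacker” animals (chr7:56644000-56644999, 34.7 points), another was 17.5 points lower (chr7:56936000-56936999), and a further one was 23.5 points higher (chr7:56973000-56973999) in “Attacker” voles.

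Imprinted genes, which are methylated on the allele of 1 parent, had 94 windows at 25 genes with 3 higher and 4 lower (7.45%). In Herc3 (LG3:13422000-13422999), a ubiquitin ligase gene that hosts the imprinted Nap1l5, “Father” animals were at 100%, 94.8%, 95.5%, 89.9% and 96.9% and “Attacker” animals ran from 73.3% over a median of 78% to 87.2% (difference -16.3 points, adjusted p = 0.825), without overlap. Of the 4 windows in or near Herc3, 1 other was higher in “Attacker” voles at an unadjusted p-value under 0.05. No difference in this gene rose above 5.6 points. A CpG-rich window of Plagl1 (LG4:13533000-13533999), a zinc finger gene whose promoter is imprinted in mammals, held 41 cytosines and differed by 22 points (adjusted p = 0.971). “Father” animals were at 0.423%, 0.445%, 0.309%, 7.34% and 12.5%, and “Attacker” animals ran from 0.382% over a median of 30.5% to 47.2%. Some animals of both groups were therefore unmethylated there, and the groups overlapped. Genes of the methylation machinery had 67 windows with 1 higher and 2 lower (4.48%). The first, in Dnmt3a (LG3:46518000-46518999), a DNA methyltransferase that acts de novo, had 27 cytosines and stayed under 3% in all “Attacker” and “Father” animals, at 0.105% ± 0.169 (SD, n = 6) in “Attacker” and 1.4% ± 0.713 (SD, n = 5) in “Father” voles (difference -1.29 points, adjusted p = 0.576). The groups did not overlap in this nearly unmethylated window.

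Windows near marker genes of DG cell types and of tissue next to the DG were counted in the same way, since a punch can take neighbouring cells. Shares at an unadjusted p-value under 0.05 stand beside 4.65% of all windows near genes. Granule neuron genes had 2 higher and 2 lower of 125 windows (3.2%). The smallest p-value lay at C1ql2, a synaptic organizer, in a window that also overlaps Slc9c2 (-1.35 points). A window of Prox1, the transcription factor that sets granule cell identity, was 17.2 points higher. Progenitor and immature neuron genes had 1 higher of 50 (2%), next to Eomes, a factor of intermediate progenitors (chr5:90529000-90529999). There “Father” animals were at 4.66%, 2.11%, 4%, 12% and 1.52% and “Attacker” animals ran from 8.12% to 19.1% (difference 7.7 points, adjusted p = 0.971). CA pyramidal neuron genes had 3 higher and 3 lower of 55 (10.9%), among them a window of Mpped1 at 46.4 points whose “Attacker” animals ran from 25% to 100%. Interneuron genes had 2 higher of 83 (2.41%), one of them in Reln (11.1 points). Habenula and thalamus genes had 2 higher and 3 lower of 105 (4.76%), with the smallest p-value in Lhx2 (-1.73 points). Choroid plexus and ependyma genes had 3 higher of 44 (6.82%), with the smallest p-value in Sostdc1 (2.03 points). The other higher windows of this group lay in Clic6 (51 points) and Calml4 (23.5 points), with overlapping groups in both. For vessels and meninges (74 windows, 1 higher and 1 lower, 2.7%) the smallest p-value was at Flt1, a VEGF receptor (2.12 points, adjusted p = 0.378). For astrocytes (28 windows, 1 higher, 3.57%) it was at Atp1b2, a sodium pump subunit (4.52 points, adjusted p = 0.581). For oligodendrocytes (72 windows, 4 lower, 5.56%) it was at Pdgfra (-1.68 points). Microglia and other immune genes had 1 higher and 2 lower of 31 (9.68%). A window of Runx1 was at -50.5 points, and 4 “Attacker” animals spread from 0% to 95.4% there. No marker group held a window with an adjusted p-value under 0.05, and these levels give no share of cells.

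The other groups were placed beside the pair at the windows past the study's thresholds. “Parental” and “Father” or “Attacker” comparisons share animals, so their values are given without a test. At the 719 hypermethylated windows with at least 4 “Parental” animals, the median level was 60.4% in “Attacker”, 29.5% in “Father” and 43% in “Parental” voles, and the “Parental” mean lay nearer to the “Attacker” mean in 49.5%. At the 463 hypomethylated windows the medians were 42.6%, 72.9% and 56.7%, and “Parental” was nearer to “Attacker” in 51.8%, against 49.7% of all windows. “Mother” medians were 37.6% and 52% in the 2 sets. Windows picked for a large difference between 2 groups tend to place any other group between them, and nothing is read from these positions. The comparison of “Parental” with “Mother” animals used none of the 11 animals that chose the windows. “Parental” was above “Mother” in 56.6% of 638 hypermethylated and 57.5% of 405 hypomethylated windows, against 51.1% of 58801 windows, so that the shares did not turn with the direction in “Attacker” voles.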

How the data were processed

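RRBS was performed on DG tissue of 23 prairie voles, of which 6 “Attacker” and 5 “Father” males were compared. The authors trimmed reads with Trim Galore, aligned them with Bismark to MicOch1.0 and deposited, per animal, the counts of total and methylated reads per CpG cytosine, without normalization. Cytosines with at least 10 reads were pooled into 1-kb windows as the mean methylated share, and windows with at least 3 such cytosines in at least 4 animals of each group were kept, without chromosome X. An animal without a level was missing in the fit of that window. RRBS reads carry no molecular identifiers, so depth limits cover counting error only, and neither reads nor calls of 1 window are independent.

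Levels on the arcsine square root scale were fitted with limma 3.58.1 (R 4.3.3, trended prior, Benjamini-Hochberg over all windows, two-sided), and mean levels were compared with exact permutation tests over animals, two-sided by doubling the smaller tail. The study tested single cytosines with an arcsine-link model of DSS and also derived differentially methylated regions with DSS. The fits were tested on simulated data, where limma held its nominal level at equal means and the quasi-binomial alternative passed too many windows. Confidence intervals of differences are from limma on untransformed levels. Genes were taken from RefSeq for MicOch1.0, which gave 26397 gene spans without exons or strand, and of these 17859 lie on the placed chromosomes used. Unplaced scaffolds were left without gene names.

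Named windows were the 10 with the smallest p-value per direction over 15 points apart, the smallest p-value of each gene group, the 5 runs of adjoining windows with the largest mean difference, and the 5 genes with most windows in one direction, with ties taken by fewer windows. The windows and gene groups were chosen with earlier results of these data known. Alternatives covered coverage, window size and offset, cytosine density, shared cytosines, strands, scale, model, animals in the fit, the animal number as a block and each animal left out. The animal's mean level as a covariate and the depth of the library (the 6 deeper or the 5 shallower) were terms chosen later, with the data already seen. Window by window, deviations of same-numbered animals from their group means were only weakly correlated, at 0.0129 to 0.0638. Mean levels over windows were lower in animals 1 to 3 than in those numbered 4 and above in both groups. The numbers were not taken to pair animals. Figures were drawn with matplotlib 3.10.9, and tables made with pandas 2.3.3, numpy 2.4.6 and scipy 1.17.1 under Python 3.11.15.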

Additional observations from a re-analysis of the deposited data

Results flagged for a closer look

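Of 136 sets of animal values checked (each group in each named window and in the mean levels), 19 had 1 animal far from the others by Dixon's criterion, and chance flags about 1 in 20 sets. In several of these sets the other animals sat together at 0% or 100%. In “Father” voles the outlying levels were 63.6% in Aldh7a1, 4.76% in Gramd2b, 1.1% near Cdyl, 0% in LOC101985643, 25% in Col15a1, 8.33% near Chmp4b, 6.67% in Dkk1, 55.3% near Map3k7cl, and 6.13% and 0.402% in 2 windows of Nr5a2. In “Attacker” voles they were 77% in LOC101985643, 91.7% in Ankrd50, 2.86% near Cpne5, 46.4% near Med30, 75% on the unplaced scaffold JH996554.1, 23.6% in Camta1, 28% in Gria1, 8.1% in Sostdc1 and 76% in a further window of Col15a1. The mean level over windows had no such animal in either group, although “Attacker” animal 6 was highest at 22.2%.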

How the results depend on the processing

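The count of windows with an adjusted p-value under 0.05, which was 0, was 1 with cytosines read in all 11 animals, 2 with summed methylated over summed total reads, 2 with neighbouring cytosines of a CpG summed, 3 without the limma trend, and 0 to 2 with an animal left out. The count past 15 points and an unadjusted p-value under 0.05 was 1341 of 64892 windows (2.07%). It was 610 of 46396 (1.31%) at a minimum of 20 reads and 363 of 37684 (0.963%) with at least 6 cytosines. With a level in all animals it was 518 of 43112 (1.2%), and over shared cytosines 288 of 34324 (0.839%). With CpG strands summed it was 2259 of 85903 (2.63%), and with an animal left out 1312 to 1633 (2.02% to 2.52%). The settings of reads, cytosines, animals and strands test other numbers of windows, and the cause was not tested further. The share of these windows higher in “Attacker” voles moved from 60.3% to 46.5% with the animal's mean level as a covariate and was 52.7% with the depth of the library as a term, both chosen with the data already seen. It ran from 43.9% (without “Attacker” animal 6) to 70.8% (without “Attacker” animal 1). The difference in mean level ran from -0.149 (without “Attacker” animal 6) to 0.9 points with an animal left out. Window by window, same-numbered animals of the groups had correlations of their deviations from the group means of 0.0638, 0.0309, 0.0413, 0.0129 and 0.0427. These were too low to take the animals as paired, although both the depth of the library and the mean level follow the number. With the animal number as a block, which drops “Attacker” animal 6 because no “Father” has its number, the share was 45.7%, the mean difference -0.149 points (exact permutation test, p = 0.812), and the counts were 0 and 1456. Of 1633 values of the 64 named windows under other settings, 1625 kept direction and side of the threshold, 6 fell under an adjusted p-value of 0.05, and 2 turned, to 0.26 points in Camta1 over shared cytosines and to -5.51 points in Esrrb with CpG strands summed. Aldh7a1 (adjusted p = 0.0146, range 0.0146 to 0.948) and the window near LOC113456149 (adjusted p = 0.0127, range 0.0127 to 0.961) passed without the trend. Over shared cytosines 10 of 21 of these differences moved by over 1.5 times. With 1 animal left out 4 did, to 7.59 points at chr6:27643000-27643999 in Nr5a2 (without “Attacker” animal 4), 0.851 in Sostdc1 (without “Attacker” animal 6), -0.765 at C1ql2 (without “Father” animal 3) and -17.7 at chr2:29207000-29207999 (without “Father” animal 4). Intervals of a difference were widest for intermediate windows, where the median SD between animals was 16.6 points in “Attacker” and 15.1 in “Father” voles.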

Other observations

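By chromosome, windows past 15 points and an unadjusted p-value under 0.05 made up 0% to 3.11% of the windows, with the highest share on LG8 (28 higher and 15 lower of 1381 windows) and none among the 65 windows of LG12. More of them were higher than lower in “Attacker” voles on 25 of 27 placed chromosomes and linkage groups, and the counts were equal on the other two, LG12 and LG3 (10 and 10). These counts hold all animals, and the share over all windows turned without “Attacker” animal 6, to 43.9%. On chromosome 21, 22 windows were higher and 4 lower of 1470.

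The methylated share of all calls was 38.7% in “Attacker” animal 6, against 8.34% to 24.7% in the other “Attacker” and 10.6% to 21.9% in the “Father” animals, while its mean level over windows, in which each cytosine counts once whatever its depth, was 22.2% against 17% to 20.2% and 17.9% to 19.7%. Dropping the deepest 0.1% of cytosines of each animal left the difference in mean level at 0.471 points.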
